A study of Mus musculus with 4 samples.

Results

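Monocytes of the contralateral brain were described here, taken as 601 of 44503 cell barcodes from 4 single-cell libraries. A barcode was a member if it carried at least 1 unique molecular identifier (UMI) of Lyz2 and at least 4 UMIs over 7 monocyte genes (Ly6c2, Ccr2, Plac8, Ms4a4c, F10, Ace and Treml4). Members held at most 2 UMIs of microglia genes (P2ry12, Tmem119, Siglech, Gpr34), at most 1 of border macrophage genes (Mrc1, Pf4, Cbr2) and under 10 of the neutrophil genes S100a8 and S100a9. They held no UMI of the T cell, B cell and NK cell genes Cd3d, Cd3e, Cd3g, Cd79a, Ms4a1 and Ncr1, and none of Hmga2. The members were thus selected on these measured UMI counts, and the levels of those genes in them are set by the choice and given as a description.

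The study set 2 ages against 2 treatments in C57BL/6 mice. Mice aged 8 weeks (young) or 93 weeks (old) received an intracranial graft of 1000 cells of CT2A, a mouse glioma line marked with GFP and luciferase, or saline as a sham. Tissue of the hemisphere that was not injected was taken 2 weeks later and profiled by droplet-based 3′ RNA sequencing. The comparison asks how age and a tumour in the opposite hemisphere go along with the cells of the non-injected side. The groups were a sham and a tumour group at each age, with 1 library each. Where 4 values follow each other, they stand in this order: the sham and the tumour library of young mice, then those of old mice. The strain field of the labels ends in a different digit in each library, while the series text names C57BL/6 for all. The number of mice behind a library is not given. With 1 library a group no difference has a replicate check, and none was tested. Every interval below covers counting error only, at the 95% level, and the spread between mice is unknown.

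Monocytes are blood leukocytes made in the bone marrow that circulate in a classical form, rich in Ly6C and the chemokine receptor Ccr2, and a nonclassical form that patrols vessels and depends on the nuclear receptor Nr4a1. The healthy brain parenchyma holds few of them, and in inflammation classical cells enter tissue through Ccr2 and can take on features of macrophages or of antigen-presenting cells. Type I interferons act through a transcription factor complex that binds the interferon-stimulated response element (ISRE), and interferon gamma acts through a factor that binds the gamma-activated site (GAS).

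Many genes of the interferon response were called higher in young tumour than in young sham in every range of members described below. Printed here are 6 promoters of genes of this response. Only promoters with a match to the elements were printed, so that each holds a match is set by the choice. Each is the 250 bases before a RefSeq transcript start on GRCm38.p6, 5′ to 3′ on the gene's strand. Capitals mark every match to ISRE (GAAA, any 2 bases, GAAA) or GAS (TTCNNNGAA), searched on both strands with overlapping matches kept. The letters of GAS read the same on both strands.
Isg15: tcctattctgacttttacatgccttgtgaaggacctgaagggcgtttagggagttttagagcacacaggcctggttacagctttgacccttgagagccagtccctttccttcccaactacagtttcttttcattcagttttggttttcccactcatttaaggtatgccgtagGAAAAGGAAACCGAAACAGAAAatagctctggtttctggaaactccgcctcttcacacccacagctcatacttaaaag
Ifit3: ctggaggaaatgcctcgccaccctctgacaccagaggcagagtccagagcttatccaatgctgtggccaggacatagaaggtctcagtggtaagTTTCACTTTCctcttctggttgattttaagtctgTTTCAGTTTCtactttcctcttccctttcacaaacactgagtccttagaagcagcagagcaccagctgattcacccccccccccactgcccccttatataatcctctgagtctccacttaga
Bst2: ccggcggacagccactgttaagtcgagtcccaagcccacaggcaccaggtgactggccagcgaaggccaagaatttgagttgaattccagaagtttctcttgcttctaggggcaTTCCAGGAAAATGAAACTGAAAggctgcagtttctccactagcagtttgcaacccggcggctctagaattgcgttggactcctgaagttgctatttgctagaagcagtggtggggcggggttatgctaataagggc
Gbp2: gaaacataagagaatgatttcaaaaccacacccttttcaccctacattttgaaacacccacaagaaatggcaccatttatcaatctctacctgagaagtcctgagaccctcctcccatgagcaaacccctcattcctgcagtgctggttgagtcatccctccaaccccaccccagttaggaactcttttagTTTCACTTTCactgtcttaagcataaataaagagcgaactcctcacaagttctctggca
Igtp: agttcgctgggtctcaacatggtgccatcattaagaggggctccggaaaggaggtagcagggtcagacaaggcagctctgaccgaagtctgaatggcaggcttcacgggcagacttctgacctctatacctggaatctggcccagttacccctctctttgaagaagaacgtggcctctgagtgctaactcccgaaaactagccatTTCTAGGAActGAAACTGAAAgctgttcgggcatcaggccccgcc
Irf1: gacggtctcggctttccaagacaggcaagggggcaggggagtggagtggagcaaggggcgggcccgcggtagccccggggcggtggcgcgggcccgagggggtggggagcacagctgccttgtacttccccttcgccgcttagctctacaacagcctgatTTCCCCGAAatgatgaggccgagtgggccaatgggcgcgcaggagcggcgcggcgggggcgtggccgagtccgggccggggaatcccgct
The Isg15 promoter (chr4:156200819-156201068, minus strand) held 3 overlapping ISRE matches, and that of Ifit3 (chr19:34583279-34583528, plus strand) held 2. The Bst2 promoter (chr8:71537473-71537722, minus strand) held 2 overlapping ISRE matches and 1 GAS match that overlaps the first of them. The promoters of Gbp2 (chr3:142620413-142620662, plus strand) and Igtp (chr11:58199306-58199555, plus strand) held 1 ISRE match each, and that of Igtp 1 GAS match besides. The Irf1 promoter (chr11:53769764-53770013, plus strand) held 1 GAS match and no ISRE match. Over all 32851 RefSeq promoters of that length, 2.98% held ISRE letters and 7.02% GAS letters. Of 28 promoters found for 26 of the 37 listed type I interferon response genes, 46.4% held ISRE letters and 10.7% GAS letters. Of 25 promoters found for 22 of the 30 listed interferon gamma response genes, 44% held ISRE letters, and the share with GAS letters was also 44%. A match is a run of letters and not evidence of binding.

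Depth was similar across libraries. They held 62726818 to 76652484 UMIs over 10665 to 12070 deposited barcodes, and 10418 to 11701 barcodes were kept, with 500 or more UMIs, 200 or more genes and no more than 20% of UMIs from mitochondrial genes. The kept barcodes had a median of 3954 to 5008 UMIs, and the members one of 7232 to 9678. Pairs of libraries shared 24 to 49 kept barcode sequences, of which none was a member in both libraries of a pair and 0 to 2 were members in 1 of them. A doublet caller marked 12, 39, 9 and 10 members, or 14.12%, 10.05%, 13.43% and 16.39%, which were kept. Of all kept barcodes it marked 9.657%, 9.624%, 8.533% and 9.067%. Of the 43, 39, 39 and 26 members low in C1q and class II genes, described below, it marked 8, 8, 7 and 6.

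Choroid plexus epithelium met the rule in every library. Of the members, 62 carried at least 10 UMIs of the choroid plexus genes Folr1, Kl, Clic6 and Prlr: 8, 19, 14 and 21 in the 4 libraries. Their median share of UMIs from Ttr, the transthyretin gene of that epithelium, was 27% to 30.6%. Their median Lyz2 count was 1 UMI in each library, and they reached the sum of 4 through Ace, whose median was 5.5 to 10 UMIs. Without Ace only 1, 3, 0 and 0 of them would have reached it, with 76 UMIs of the other 6 genes in the one of young sham and 163, 17 and 10 in those of young tumour. They held 31.4%, 16.6%, 51.9% and 69.5% of all member UMIs, so levels over all members partly describe epithelium. The label therefore does not hold for most of these barcodes. Levels and ratios below are given for the other 539 members unless stated, and the choice to set the 62 aside was made after seeing the data.

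**Figure D1:**
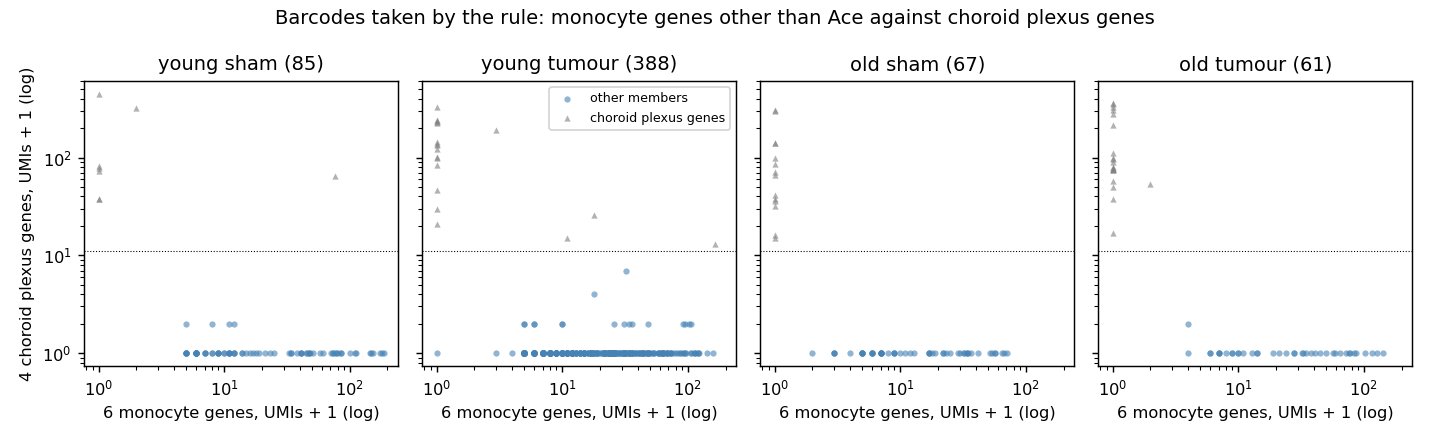
Each point is a barcode taken by the rule, by its UMIs of the 6 monocyte genes other than Ace (horizontal) and of Folr1, Kl, Clic6 and Prlr (vertical), both on a log scale after adding 1, with a panel for each library and a dotted line at the limit of 10 choroid plexus UMIs. The 8, 19, 14 and 21 triangles above the line sit mostly at the left edge, with a median of 0 monocyte UMIs.

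The other 539 members carried monocyte genes that the rule required and others that it did not use. Ccr2, the receptor for Ccl2 and a gene of the rule, so that its detection is in part set by the choice, was found in 87%, 62.9%, 77.4% and 90% of members, at median depths of 7121, 8214, 6625 and 7792 UMIs. In astrocyte-rule barcodes, which should lack it, it was detected in 0.159%, 0.134%, 0.0903% and 0.119%, at median depths of 4173, 3526, 4124 and 4309 UMIs. After thinning every barcode to 1000 UMIs, Ccr2 was found in 45.5%, 26.3%, 39.6% and 55% of members and in 0% of astrocyte-rule barcodes of each library. Among the genes outside the rule that were highest in members of every library against all other kept barcodes were Gpr141, Mefv (pyrin, an inflammasome sensor), Sirpb1c, Plbd1, Cyp4f18 and Napsa. All 20 monocyte marker genes outside the rule were detected in each library, at a summed 7154, 6959, 9207 and 8601 counts per 1000000 UMIs of the members (CPM). They summed to 1223 to 1502 CPM in microglia-rule barcodes and to 8683 to 11260 CPM in neutrophil-rule barcodes, so they set the members apart from microglia and not from neutrophils.

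Microglia and T cell genes stayed low in members, while genes of some other cell types did not in every library or range. Dendritic cell, oligodendrocyte and astrocyte markers in some ranges of members are given below. P2ry12, a microglial purinergic receptor limited by the rule, was at 15.5, 11.4, 0 and 11.4 CPM in members, against 1724 to 2502 CPM in microglia-rule barcodes. Sall1, a microglial transcription factor outside the rule, was at 3.09, 2.4, 0 and 0 CPM in members against 225.5 to 288.5 CPM in microglia-rule barcodes. The 12 microglia markers summed to 536, 1012, 405 and 440 CPM in members and to 18832 CPM or more in microglia-rule barcodes. They include P2ry12, Tmem119, Siglech and Gpr34, on which both kinds of barcode were chosen, so part of this gap is set by the choice. T cell markers summed to at most 4.8 CPM, and among them the rule allowed no UMI of Cd3d, Cd3e and Cd3g. Hemoglobin genes and Alas2 summed to 12978 CPM in old sham, where 2 members held at least 100 hemoglobin UMIs, and to 8.58 to 263 CPM elsewhere. Endothelial markers summed to 371, 632, 661 and 94.4 CPM, with 3, 10, 1 and 0 members holding at least 10 UMIs of Cldn5, Flt1, Pecam1 and Cdh5.

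Members by the rule took a larger share of the barcodes in young tumour than in any other library. Those low in C1q and class II genes, described below, did not, at 0.337% in young tumour and 0.367% in young sham. By the rule there were 85 of 11701 kept barcodes in young sham, or 0.726% (exact binomial interval 0.581% to 0.897%). Young tumour held 388 of 11575, or 3.35% (3.03% to 3.7%). Old sham held 67 of 10418, or 0.643% (0.499% to 0.816%), and old tumour 61 of 10809, or 0.564% (0.432% to 0.724%). The young tumour interval lay above the other three, which overlapped each other. Young tumour exceeded young sham 4.61-fold (3.64 to 5.91), while the ratio of old tumour to old sham was 0.878 (0.61 to 1.26). Old tumour stood at 0.168 of young tumour (0.126 to 0.221), and old sham at 0.885 of young sham (0.633 to 1.23). Without the choroid plexus barcodes the shares were 0.658%, 3.19%, 0.509% and 0.37%, and the ratio of young tumour to young sham was 4.84 (3.78 to 6.28). Over haematopoietic barcodes, those with at least 3 UMIs of Ptprc, Cd52, Tyrobp, Fcer1g and Laptm5, the shares of members were 1.56%, 7.17%, 1.58% and 1.21%. Cell recovery after dissociation can differ between libraries, and its part in the shares was not tested.

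The threshold of 4 UMIs cut through a range that held barcodes on both sides. In the C1q-high members described below, the median sum of the 7 genes was 6 UMIs in young sham and 10 in young tumour. At a sum of exactly 4 there were 7, 35, 8 and 9 members, of which 3, 3, 3 and 7 were choroid plexus barcodes. At a sum of 3, just outside, there were 7, 27, 6 and 13 barcodes, of which 3, 3, 3 and 11 carried the choroid plexus genes.

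The excess in young tumour lay in members with macrophage or antigen presentation genes. Members were split by their UMIs per 10000 of the complement genes C1qa, C1qb and C1qc, with a limit of 20, and below that by the MHC class II genes H2-Aa, H2-Ab1, H2-Eb1 and Cd74, with a limit of 100. Both limits were set after seeing the data and define ranges of a score, not cell types. C1q-high members numbered 13, 228, 3 and 4, or 0.111%, 1.97%, 0.0288% and 0.037% of kept barcodes. Their share in young tumour was 17.7 times that in young sham (10.2 to 33.8). Class II-high members that were low in C1q numbered 21, 102, 11 and 10, with a young tumour to young sham ratio of 4.91 (3.05 to 8.27). Members low in both numbered 43, 39, 39 and 26, or 0.367%, 0.337%, 0.374% and 0.241%, with ratios of 0.917 (0.579 to 1.45) in young and 0.643 (0.376 to 1.08) in old mice. Few members lay within 2-fold of the limits: 3, 12, 0 and 0 for C1q, and 3, 18, 5 and 1 for class II.

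**Figure D2:**
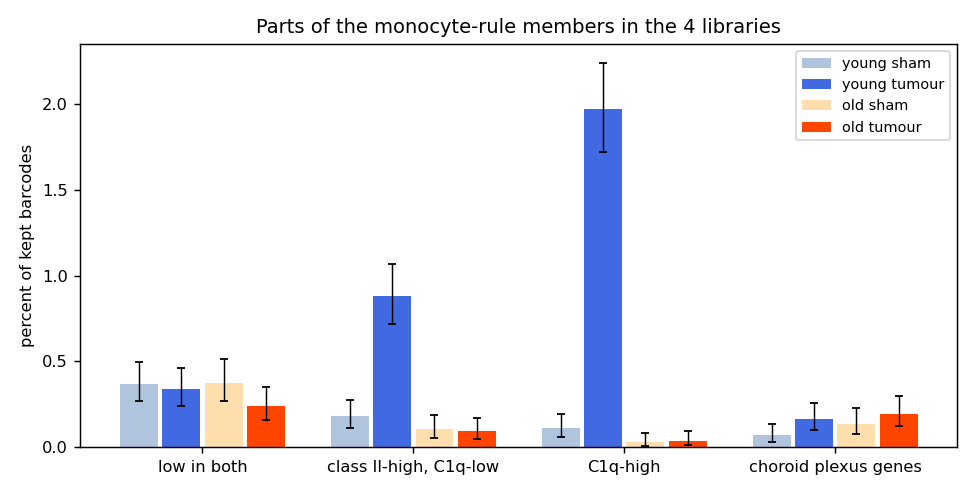
Share of kept barcodes in percent (vertical) taken by each range of members (C1q-high, class II-high, low in both, choroid plexus) in the 4 libraries, with bars for the share and lines for exact binomial 95% intervals. The C1q-high share is 1.97% in young tumour and at most 0.111% elsewhere, while the double-low share is 0.241% to 0.374% throughout.

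**Figure D3:**
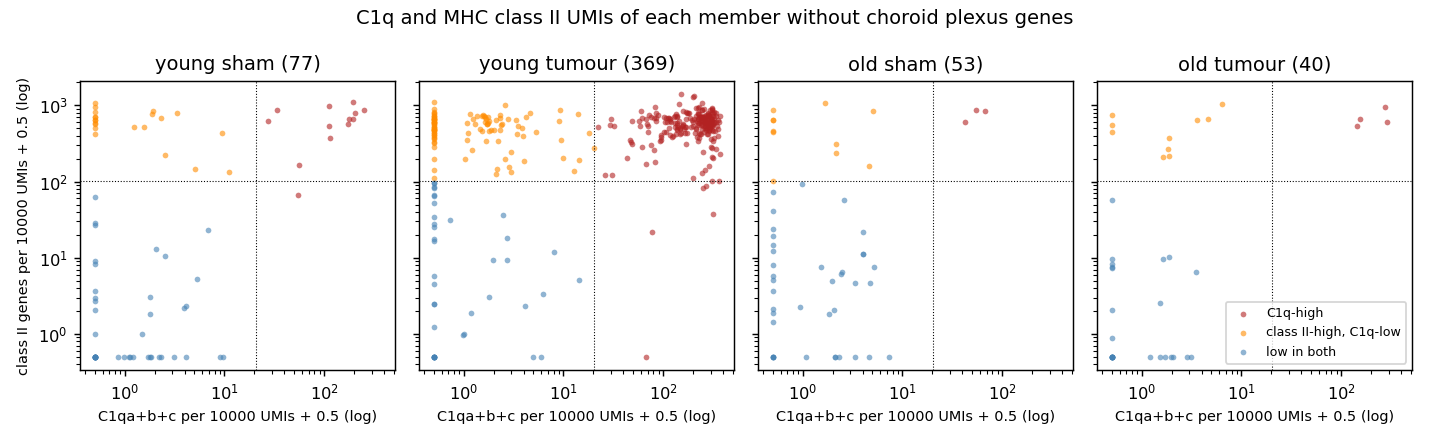
Each point is a member without the choroid plexus signal, by its C1q UMIs per 10000 (horizontal) and its class II UMIs per 10000 (vertical), both on a log scale after adding 0.5, with a panel for each library and lines at 20 and 100. Right of the line at 20 lie 228 members in young tumour and 13, 3 and 4 in the other libraries.

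The C1q-high members of young tumour held macrophage genes beside the monocyte genes that the rule required. The 20 monocyte markers outside the rule summed to 7357 CPM there and to 3858 CPM in the C1q-high members of young sham. Apoe, a lipid carrier that tissue macrophages make in quantity, was at 38539 CPM in the 228 members of young tumour and at 12725 CPM in the 13 of young sham, a ratio of 3.03 (2.85 to 3.23). Ms4a7, a membrane gene of macrophages outside the microglia, was at 1412 against 115 CPM, a ratio of 12.3 (6.46 to 26.9). Trem2, a lipid receptor of microglia and macrophages, was at 495 against 511 CPM and thus near equal. Against microglia-rule barcodes of the same library the contrast was wide: there Ms4a7 was at 6.58, Trem2 at 2808 and Sall1 at 288 CPM, while in C1q-high members Sall1 was at 2.96 CPM. Border macrophage-rule barcodes held Ms4a7 at 1148 and Apoe at 58203 CPM, with Ccr2 at 0 by their definition, and C1q-high members held Ccr2 at 254.8 CPM. Plac8, a monocyte gene of the rule, was at 573 CPM in C1q-high members of young tumour and at 0 in the 13, 3 and 4 of the other libraries, at least 14.9-fold higher than in young sham. In young sham the 13 C1q-high members also carried oligodendrocyte markers at a summed 3692 CPM, against 925 CPM in young tumour. Microglia markers summed to 1916 against 1233 CPM in these members and endothelial markers to 920 against 416 CPM, and 3 of 13 and 115 of 228 held no UMI of the microglia genes of the rule. The part of these other genes in the ratios was not tested.

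Class II-high members held dendritic cell genes beside monocyte genes. The 13 conventional dendritic cell markers summed to 1730, 1076, 1857 and 1936 CPM, against 169 CPM in the C1q-high members of young tumour. Cd209a, a lectin of monocyte-related dendritic cells, was at 644, 167, 984 and 774 CPM, so lowest in young tumour (0.26 of young sham, 0.203 to 0.334). Plac8 was at 914, 2167, 582 and 653 CPM and Ly6c2 at 253, 721, 30.1 and 72.6 CPM, both highest in young tumour. Of 14 tested proliferation genes 13 were past 2-fold higher in young tumour than in young sham and 0 lower, with a median log2 ratio of 1.95, against 13.4% higher and 7.33% lower over all 2782 genes tested in these members and a median of 0.11. Top2a, a topoisomerase of dividing cells, was at 17.2 CPM, from 3 UMIs, against 119 CPM in young mice, a ratio of 6.88 (2.3 to 33.9). Mki67, a proliferation antigen, was at 0 and 65 CPM, at least 3.77-fold higher. By the limits given below, Top2a and Mki67 could be tested only through young tumour, where they were high. Class II-high members held 968703 UMIs in young tumour and 173966 in young sham. The count of 13 higher and 0 lower is thus in part set by the filter. In old sham, class II-high members also carried oligodendrocyte markers at a summed 4920 CPM, and in old tumour astrocyte markers at 3049 CPM, from 11 and 10 members.

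Over the 539 members, genes were compared by their CPM, summed over the members of a library. A gene was tested with at least 20 UMIs over the pair and at least 50 CPM in 1 library, and called where the ratio passed 2-fold in either direction. A gene can thus be tested through the library where it is high alone. Members of young tumour held 3336322 UMIs against 646867 in young sham, so a gene high in young tumour passed the UMI limit more easily. List counts and medians below are in part set by this filter. Between young tumour and young sham 274 of 2964 genes (9.24%) were called higher and 228 (7.69%) lower, with a median log2 ratio of −0.17. By the rule, with the choroid plexus barcodes, 251 of 2816 (8.91%) were called higher and 144 (5.11%) lower. Between old tumour and old sham 159 of 3155 genes (5.04%) were called higher and 220 (6.97%) lower, with a median of −0.01. By the rule the old comparison called 26 of 2786 (0.933%) higher and 199 (7.14%) lower. Tumour against sham list counts over the 539 members stand against 9.24% higher and 7.69% lower in young mice. In old mice they stand against 5.04% and 6.97%.

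Chemokines stood highest among the genes of young tumour. Ccl5 (ENSMUSG00000035042, chr11:83525778-83530518, minus strand), a chemokine that draws T cells and monocytes, was at 37.1, 2597, 31.3 and 0 CPM in the 4 libraries. Young tumour exceeded young sham 70-fold (47 to 109). Cxcl9 (ENSMUSG00000029417, chr5:92321347-92328079, minus strand), an interferon gamma-induced ligand of the T cell chemokine receptor Cxcr3, was at 21.6, 1249, 5.22 and 134 CPM. Its ratio was 57.7 (34.4 to 106) in young and 25.7 (6.74 to 219) in old mice, where the 47 UMIs of old tumour came from at most 5 members and those of old sham were 2. Cxcl10, another Cxcr3 ligand, was at 40.2, 623, 20.9 and 48.6 CPM, a ratio of 15.5 (10.5 to 23.8) in young mice. The monocyte attractants Ccl12, Ccl7 and Ccl8 were at 0 in young sham and at 245.5, 124 and 111 CPM in young tumour, at least 52.9-fold, 26.8-fold and 23.8-fold higher. In old sham and old tumour Ccl12 was at 5.22 and 11.4 CPM, Ccl7 at 2.61 and 5.72 CPM, and Ccl8 at 0 in both, all from at most 4 UMIs. Cxcl16, a ligand of Cxcr6, was at 58.7, 632, 70.5 and 28.6 CPM, so its ratio was 10.8 (7.81 to 15.2) in young and 0.406 (0.175 to 0.865) in old mice. Over all members these 7 chemokines were thus far higher in young tumour than in each other library. C1q-high members were 16.9%, 61.8%, 5.66% and 10% of the members of the 4 libraries. The part of this mix in levels over all members was not tested. In old mice Ccl5, Cxcl10, Ccl12, Ccl7 and Ccl8 were under 50 CPM in both libraries and could not be called. Of the others, Cxcl9 was called higher and Cxcl16 lower in old tumour than in old sham.

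Not all inflammatory genes followed. Il1b, the cytokine interleukin-1 beta, was at 830, 721, 1922 and 769 CPM, so highest in old sham, with ratios of 0.868 (0.79 to 0.955) in young and 0.4 (0.347 to 0.461) in old mice. Tnfsf9, the ligand of the T cell costimulatory receptor 4-1BB, was lower with a tumour at both ages, at 175 and 30.6 CPM in young and 303 and 40 CPM in old mice. Of 16 tested cytokine and chemokine genes 8 were called higher and 4 lower in young tumour, with a median log2 ratio of 0.59. Without the members carrying endothelial or granule protease genes this median was −0.23, so its direction differs with the members taken. In old mice 2 of 11 were called higher and 4 lower, with a median of −0.11.

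Type I interferon response genes were higher in young tumour. Of 29 tested, 23 were called higher and 0 lower, with a median log2 ratio of 1.86 against −0.17 over all tested genes. By the rule it was 25 and 0 of 29, with a median of 2.12. Isg15 (ENSMUSG00000035692, chr4:156199424-156200818, minus strand), a ubiquitin-like modifier, was at 63.4, 845, 107 and 197 CPM. Its ratio was 13.3 (9.8 to 18.6) in young and 1.84 (1.23 to 2.78) in old mice. Ifit3, which binds viral RNA complexes, was at 15.5, 165.5, 2.61 and 51.5 CPM, a ratio of 10.7 in young mice. Irf7, which amplifies type I interferon, was at 66.5, 401, 88.8 and 120 CPM. Bst2, which tethers budding virus, was at 272, 959, 172 and 403 CPM and, with Phf11b, was called higher at both ages, with ratios of 3.52 and 2.34 for Bst2. In old mice 2 of 17 tested genes were called higher and 0 lower, with a median of 0.39, while by the rule the old median was −0.34.

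Interferon gamma response genes were higher in young tumour as well. Of 21 tested, 16 were called higher and 0 lower, with a median log2 ratio of 2.80. Gbp2 (ENSMUSG00000028270, chr3:142620602-142638008, plus strand), a guanylate-binding protein that attacks pathogen vacuoles, was at 10.8, 266, 34 and 54.4 CPM, a young ratio of 24.6 (11.9 to 61.3). Igtp, an immunity-related GTPase, was at 9.28, 103, 26.1 and 8.58 CPM. Iigp1, of the same family, was at 6.18 against 248 CPM in young mice, a ratio of 40.1 (15.6 to 148). Irf1 (ENSMUSG00000018899), an early factor of the pathway, was at 27.8, 133, 105 and 48.6 CPM, a ratio of 4.78 in young mice and lower in old tumour than in old sham. Cd274, the checkpoint ligand PD-L1, was at 4.64 against 51.6 CPM in young mice, a ratio of 11.1. Gbp2, Igtp, Iigp1, Irf1 and Cd274 were each under 50 CPM in young sham and so were tested only through young tumour. The count of 16 and the median are thus in part set by the filter. In old mice only 9 genes of the list could be tested, of which 1 was called higher and 1 lower. The old median was 0.68, and by the rule, over 4 genes, −1.14. By the rule and after thinning to 1000 UMIs it was 0.19, so its direction differs with the members, genes and depth taken.

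**Figure D4:**
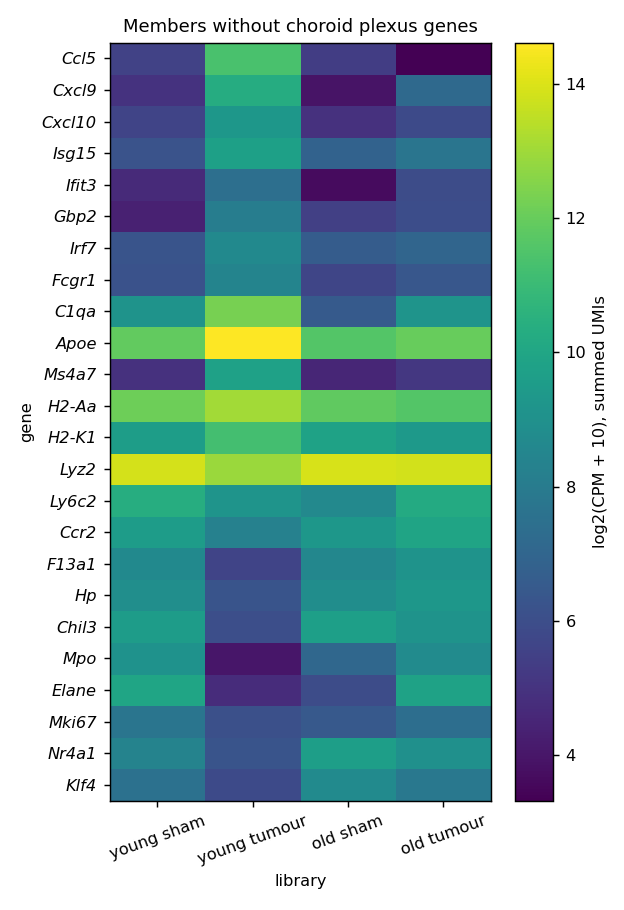
Level of 24 genes (rows) in the members without choroid plexus barcodes of each library (columns), as log2 of CPM plus 10 by colour. Ccl5, Cxcl9, Isg15 and Gbp2 are highest in young tumour, at 2597, 1249, 845 and 266 CPM, and Lyz2 is lowest there at 7763 CPM.

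The interferon genes were higher in young tumour within each range of members as well. In the double-low members, without those carrying endothelial or granule protease genes (31 in young sham and 34 in young tumour), 18 of 26 type I genes and 10 of 14 interferon gamma genes were called higher and 0 lower. Their medians were 1.33 and 2.24, with 10.4% of 2645 tested genes called higher, 6.09% lower and a median of 0.02. There Isg15 was at 136 and 1057 CPM, a ratio of 7.78 (5.12 to 12.3). In these members Gbp2 was at 16.3 CPM, from 3 UMIs, against 634.5 CPM, a ratio of 38.9 (13 to 191), with 70.7% of the young tumour UMIs in 5 members. In the class II-high members 26 of 29 type I genes and 15 of 19 interferon gamma genes were called higher and 0 lower, with medians of 2.41 and 2.58. In the C1q-high members 24 of 31 and 13 of 22 were called higher and 0 lower, with medians of 1.26 and 1.54, where 14.5% of 3195 tested genes were called higher and 18.8% lower. In old mice the double-low members, 35 in old sham and 21 in old tumour, had 1 of 14 type I genes and 2 of 7 interferon gamma genes called higher and 0 lower, against 6.25% of 2593 genes higher and 7.37% lower, with medians of 0.43 and 0.56.

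Other cells of the same libraries shared part of this. In microglia-rule barcodes Isg15 was at 25.8, 54, 47.9 and 42.4 CPM, and Gbp2 at 7.29, 22.5, 7.86 and 8.94 CPM. In neutrophil-rule barcodes Isg15 was at 69.7, 922.5, 65.5 and 53.5 CPM, near the levels in monocytes of the young libraries and below those of the old ones. In astrocyte-rule barcodes Isg15 was at 60.1, 194, 101 and 151 CPM. The median log2 ratio of the type I list, young tumour over young sham, was 0.83 in microglia-rule, 0.78 in border macrophage-rule and 1.87 in neutrophil-rule barcodes. That of the interferon gamma list was 0.06, 1.22 and 0.89. The difference from monocytes was not tested.

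Macrophage genes were higher over all members of young tumour, with 14 of 20 tested genes called higher and 0 lower and a median log2 ratio of 2.01. Over all genes tested there 9.24% were called higher and 7.69% lower. C1qa (ENSMUSG00000036887, chr4:136895917-136898803, minus strand), a chain of complement C1q that also defined the ranges above, was at 552, 5004, 81 and 566 CPM. Apoe (chr7:19696109-19699188, minus strand) was at 3837, 25021, 3084 and 4030 CPM, a ratio of 6.52 in young mice and 1.31 in old. Among Fc receptors, Fcgr4 was at 38.7, 403, 39.2 and 60.1 CPM and Fcgr1, the high-affinity IgG receptor, at 61.8, 333, 41.8 and 74.4 CPM. Within the double-low members, again without endothelial or granule protease carriers, 2 of 14 macrophage genes were called higher and 0 lower, with a median of −0.13, a result that the limit on C1q favours. In class II-high members it was 3 higher and 1 lower of 15, with a median of 0.31. In old mice 6 of 17 macrophage genes were called higher and 1 lower over all members. Over all genes tested there 5.04% were called higher and 6.97% lower. Of the 198 C1qa UMIs of old tumour, however, 97% came from 5 members.

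Classical monocyte genes were lower over all members of young tumour, with 0 of 13 called higher, 10 lower and a median log2 ratio of −1.69. Ly6c2 (ENSMUSG00000022584, chr15:75108158-75111970, minus strand), a gene of the rule and the surface marker of classical cells, was at 1299, 562, 387 and 1196 CPM. Chil3, a chitinase-like protein of young monocytes, was at 751, 56.4, 820 and 541 CPM. F13a1, a clotting factor subunit, was at 405, 39.9, 360 and 549 CPM, and Hp, haptoglobin, at 467, 66.5, 454 and 624 CPM. Young tumour was lowest in Chil3, F13a1 and Hp, and old sham in Ly6c2. In double-low members without endothelial or granule protease carriers 3 of 15 classical genes were called lower and 0 higher, with a median of −0.49. There, in young mice, Ly6c2 was at 1337 and 1279 CPM, Plac8 at 3354 and 3642 CPM and Chil3 at 2435 and 619 CPM. Chil3 was thus lower in young tumour in these members too, at 0.254 of young sham (0.206 to 0.312), while the interval of the Ly6c2 ratio, 0.957 (0.799 to 1.15), held 1. Lyz2 (chr10:117277331-117282321, minus strand), lysozyme, was at 34405 and 19519 CPM there, a ratio of 0.567 (0.545 to 0.591).

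MHC class I genes were higher in young tumour, with 10 of 18 called higher and 0 lower and a median log2 ratio of 1.06. H2-K1, a classical class I heavy chain, was at 771, 2394, 896 and 689 CPM, and B2m, its light chain, at 1340, 3609, 1661 and 1510 CPM. H2-Q7, a nonclassical class I gene whose reads can be shared with near-identical H2-Q copies, was at 38.7 against 495 CPM in young mice. In old mice 0 of 15 were called in either direction, with a median of 0.10.

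MHC class II genes over all members were mostly within 2-fold. H2-Aa, a class II alpha chain, was at 4486, 8577, 3682 and 3101 CPM, 1.91 times higher with a tumour in young mice and at 0.842 of sham in old ones. Cd74, the invariant chain, was at 11744, 21903, 9330 and 7525 CPM. In young mice 1 of 9 genes was called higher and 0 lower, with a median log2 ratio of 0.75, and in old mice 0 of 6 either way, with a median of −0.18. Without the endothelial and granule protease carriers the young median was 0.20. Other choices of members gave larger values: by the rule and without members carrying dendritic cell genes the young median was 2.01. In double-low members without the carriers, whose class II level is held low by their limit, 4 of 6 genes were called higher and 0 lower in young mice, with a median of 1.72, and 0 higher and 4 lower of 6 in old mice, with a median of −1.62. Within class II-high members H2-Aa was at 11474, 9379, 10492 and 9315 CPM, near equal in all 4 libraries, as the choice of members favours. In microglia-rule barcodes the young median of the class II list was 4.13, from H2-Aa levels of 4.42 and 187 CPM.

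**Figure D5:**
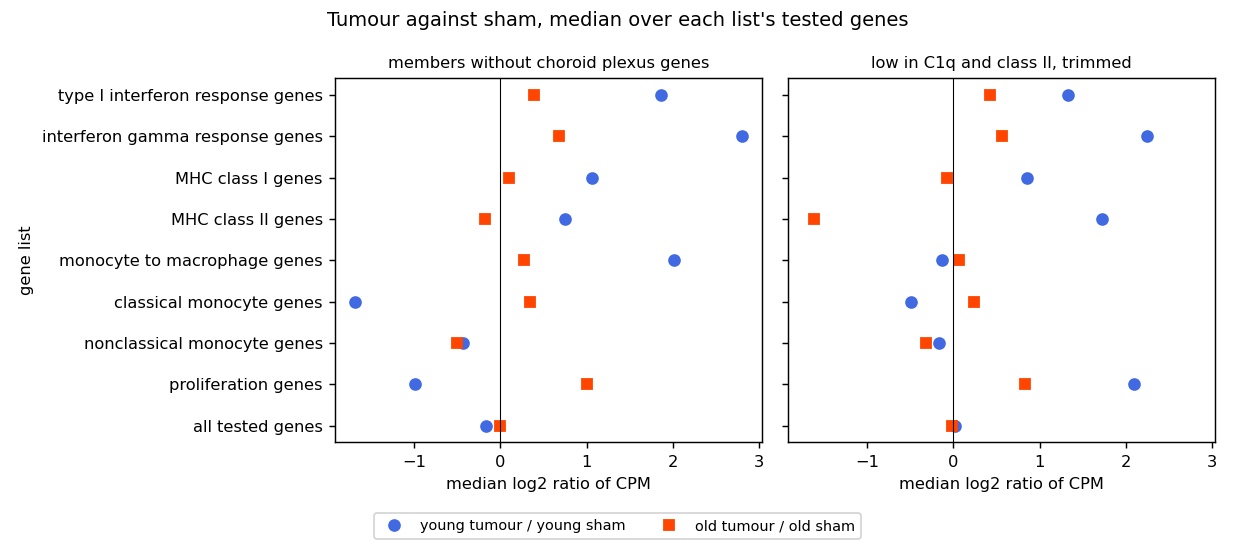
Median log2 ratio of CPM, tumour over sham (horizontal), over the tested genes of each list (rows), with circles for young and squares for old mice, in members without choroid plexus barcodes (left) and in those low in C1q and class II genes and trimmed of endothelial and granule protease carriers (right). The young interferon medians lie above 1 in both panels, while the macrophage median goes from 2.01 to −0.13, which the limit on C1q favours.

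A small set of members carried granule proteases of myeloid precursors. With at least 10 UMIs of Mpo, Elane, Prtn3 and Ctsg, there were 10, 1, 3 and 5, all low in C1q and class II. Each of these 19 had a UMI of Mki67 or Top2a, and in their library they held 94% to 99.4% of the UMIs of the 4 proteases. Elane (chr10:79886247-79888215, plus strand), neutrophil elastase, was at 1000, 16.8, 52.2 and 890 CPM over all members. Mpo (chr11:87793581-87804413, plus strand), myeloperoxidase, was at 538, 6, 125 and 423 CPM. In these carriers Ly6c2 was at 1248 to 2977 CPM and Isg15 at 0 to 19.2 CPM. The proliferation list changed direction when these carriers and the endothelial ones were left out together, and neither kind was left out alone. With them 0 of 14 proliferation genes were called higher and 7 lower in young tumour, with a median of −0.99. Without both kinds 5 of 9 were called higher and 0 lower, with a median of 1.18, where 8.92% of all tested genes were called higher and 8.95% lower. In old mice the list moved from 8 higher of 15, with a median of 1.01, to 1 higher of 5, with a median of −0.01, where 6.13% of all tested genes were called higher and 6.44% lower.

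Some nonclassical genes were higher in old sham than in young sham, while the intervals of the nonclassical shares of these libraries overlapped. Counted by whether Ace, Treml4 and F10 outweighed Ly6c2 and Ccr2, nonclassical members were 11 of 77 in young sham (14.3%, 7.35% to 24.1%) and 21 of 369 in young tumour (5.69%, 3.56% to 8.57%). They were 14 of 53 in old sham (26.4%, 15.3% to 40.3%) and 7 of 40 in old tumour (17.5%, 7.34% to 32.8%). This cut uses rule genes, and 7, 121, 8 and 2 members lay within 1 UMI of it. Between old sham and young sham 226 of 3112 genes (7.26%) were called higher and 123 (3.95%) lower, with a median log2 ratio of 0.04. Of 19 nonclassical genes 6 were called higher and 0 lower, with a median of 0.84. Nr4a1 (ENSMUSG00000023034, chr15:101254269-101274795, plus strand) was at 322, 65.6, 799 and 498 CPM, a ratio of old to young sham of 2.49 (2.08 to 2.98). Klf4, a factor of monocyte differentiation, was at 173, 48.3, 413 and 220 CPM, highest in old sham as well. Ear2, a ribonuclease of nonclassical cells, was at 94.3, 13.2, 198.5 and 140 CPM. Nr4a1 and Klf4 are also induced by dissociation, and of 23 immediate early genes 4 were called higher and 0 lower in old sham, with a median of 0.31. Nr4a1 was at 34.2, 13.6, 219 and 46.8 CPM in microglia-rule barcodes, with old sham highest there too. The part of cell handling in the Nr4a1 levels was not tested. Some genes high in old sham came from few barcodes: 98.4% of the UMIs of the neuronal gene Rtn1 and 100% of those of Peg3 came from 5 members.

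The 2 tumour libraries differed most. Old tumour against young tumour had 364 of 3035 genes (12%) called higher and 267 (8.8%) lower, with a median of 0.19. Classical genes were called higher in 13 of 14 and lower in 0, with a median log2 ratio of 2.29, and nonclassical genes in 9 and 0 of 16, with a median of 1.04. By the rule the nonclassical median was −1.17, and by the rule with the mean of each barcode's CPM it was 0.11. Its direction thus differs with the members and the measure taken. Macrophage genes were called lower in 16 of 20, interferon gamma genes in 16 of 21, type I genes in 15 of 29 and MHC class I genes in 13 of 18, and higher in 0 of each. Cxcl16 stood at 0.0453 of young tumour (0.0217 to 0.0834) and Cxcl10 at 0.0781 (0.0454 to 0.125). This comparison shares its libraries with those above. In double-low members without endothelial or granule protease carriers, 8.11% of 2502 genes were called higher and 9.31% lower, and 19 of 26 type I genes and 9 of 14 interferon gamma genes were called lower. Macrophage genes there had a median of −0.02, with 2 called higher and 2 lower of 13.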

How the data were processed

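RNA was measured in 4 droplet libraries, with 1 library a group. The authors deposited filtered matrices of UMI counts per gene and barcode, on mm10. The submitters' processing notes name Cell Ranger 3.0.2 and Seurat 2.3.4, while the matrix headers name Cell Ranger 6.1.0. Of the 32285 gene IDs, 32158 (99.6%) were found in GENCODE M21, whose GRCm38 positions are printed. From the counts, barcodes were filtered and selected as the report states, UMIs were summed over members, and CPM used the total of those members. Intervals of ratios are exact conditional Poisson ones, and those of shares are Clopper-Pearson ones. UMIs are counted molecules, and intervals cover counting error only. A count of 0 was set to a floor of 3 UMIs, which gives a bound. Mitochondrial, ribosomal protein, hemoglobin, Y-linked and unnamed predicted genes and Xist were left out of the calls but not of the totals.

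With 1 library a group no test was made, and no p-value is given. The scripts were tested on simulated data. Named genes were the 15 highest against all other barcodes, the 10 highest and lowest by the interval bound nearest no change for each contrast and for contrasts of the same direction, 8 for the difference between ages, and list members. The rule was applied to the members without choroid plexus barcodes, and some names were picked after their values were seen. The members, the 20 gene lists and the 16 marker lists were chosen with earlier results of these data known. Alternatives covered filters, doublets (Scrublet, scanpy 1.11.5, at 0.8% per 1000 barcodes), the rule's limits, normalization, low-count filters and thinning to 1000 UMIs. Python 3.11.15, NumPy 2.4.6, pandas 2.3.3, SciPy 1.17.1 and Matplotlib 3.10.9 were used.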

Additional observations from a re-analysis of the deposited data

Results flagged for a closer look

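The share of members by the rule moved in opposite directions with a tumour at the 2 ages. The ratio of the share in tumour to sham was 4.61 for young mice and 0.878 for old ones, where its interval held 1. In members low in C1q and class II genes the ratios were 0.917 and 0.643, and both intervals held 1. The MHC class II list had a median log2 ratio of 0.75 (young) and −0.18 (old), and the list of inflammatory cytokines and chemokines one of 0.59 (young) and −0.11 (old), over members without choroid plexus barcodes. Without the endothelial and granule protease carriers the young medians were 0.20 and −0.23. The difference between the ages was not tested in these 3 results, since each group has 1 library.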

How the results depend on the processing

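No paired analysis was possible because each group has 1 library, and no library could be left out. The values below are for members by the rule. For the share ratio of old to young tumour, 0.168 by the rule, the value was 0.116 without choroid plexus barcodes, 0.105 without choroid plexus, endothelial and granule protease barcodes, 0.11 with Ace left out of the sum, and 0.714 in double-low members, where the ratio of young tumour to young sham was 0.917 and thus reversed.

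By the rule 251 of 2816 genes (8.91%) were called higher and 144 (5.11%) lower in young mice, and 26 of 2786 (0.933%) and 199 (7.14%) in old mice. Each alternative also changed which genes were tested, and no CPM minimum dropped the limit of 20 UMIs as well. The counts below are thus not shares and do not separate calls from genes tested. Genes higher in young tumour than in young sham were 496 in double-low members, 408 after thinning and 987 with no CPM minimum. Genes lower were 282 with no microglia UMIs, 247 without members carrying dendritic cell genes, 258 in classical members, 228 without choroid plexus barcodes, 253 also without endothelial and granule protease ones, 307 in double-low members, 236 without Ace, 224 with totals without mitochondrial and ribosomal genes, 241 after thinning and 1839 with no CPM minimum. In old mice, genes higher were 41 with doublets removed, 76 with the stricter barcode filter, 92 with no microglia UMIs, 40 without dendritic cell genes, 182 in classical members, 159 without choroid plexus barcodes, 198 also without the other carriers, 208 in double-low members, 147 without Ace, 95 by the mean of each barcode's CPM, 51 centred on the median, 41 after thinning and 791 with no CPM minimum. Genes lower were 60 after thinning and 1674 with no CPM minimum. Between shams, genes higher in old were 302 with no microglia UMIs, 256 in classical members, 226 without choroid plexus barcodes, 286 also without the other carriers, 313 in double-low members, 231 without Ace, 206 by mean CPM, 68 after thinning and 1356 with no CPM minimum. Genes lower were 245 with no microglia UMIs, 249 without dendritic cell genes, 231 in double-low members, 201 with totals without mitochondrial and ribosomal genes, 61 after thinning and 1270 with no CPM minimum. Between tumour libraries, genes higher in old were 269 after thinning and 2248 with no CPM minimum, and genes lower were 287 in classical members, 267 without choroid plexus barcodes, 264 also without the other carriers, 273 without Ace, 296 by mean CPM and 2056 with no CPM minimum. The counts by the rule between shams and between tumour libraries are not given, and the cause of these moves was not tested.

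The young MHC class II median, 1.03 by the rule, was 1.47 at a monocyte gene sum of 6, 2.01 without dendritic cell genes, 2.70 in double-low members and 0.20 without choroid plexus, endothelial and granule protease barcodes. The young type I median, 2.12, was 1.55 in double-low members and 1.59 without those 3 kinds of barcode, and the young interferon gamma median, 2.89, was 1.88 after thinning. The old class II median, −0.83, was −0.53 at a sum of 6, −0.09 without dendritic cell genes, −0.43 in classical members, −0.18 without choroid plexus barcodes, −0.04 also without the other carriers, −1.87 in double-low members, −0.17 without Ace, 0.01 by mean CPM and 0.15 after thinning. The old type I median, −0.34, was 0.34 in classical members, 0.39 without choroid plexus barcodes, 0.63 also without the other carriers and 0.45 without Ace. The old interferon gamma median, −1.14 over 4 genes, was reversed to 0.74 in classical members, 0.68 without choroid plexus barcodes, 0.94 also without the other carriers, 0.59 in double-low members, 0.87 without Ace and 0.19 after thinning, and was −0.43 by mean CPM and −0.45 with no CPM minimum. The choroid plexus barcodes hold over 50% of member UMIs in both old libraries, and the cause of the moves was not tested.

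Reversed without choroid plexus, endothelial and granule protease barcodes in young mice were the inflammatory list (−0.23) and the log2 ratios of Mki67 (2.04), Top2a (1.65), Stmn1 (0.61) and Hmgb2 (0.11). Reversed in double-low members were Ace (0.11), Cyp4f18 (−0.55), Adgre5 (0.14), Trem2 (−1.14) and Klf2 (0.13). Between tumour libraries the nonclassical median turned to 0.23 in classical members, 1.04 without choroid plexus barcodes, 0.66 in double-low members, 1.36 without the 3 kinds of barcode, 0.98 without Ace and 0.11 by mean CPM. The chemokine receptor and adhesion median turned to 0.29 in classical members, 0.34 without choroid plexus barcodes, 0.29 in double-low members, 0.39 without the 3 kinds of barcode and 0.31 without Ace. In double-low members the macrophage median turned to 0.01, the suppressive and checkpoint median to 0.39, the Fc receptor and complement median to 0.06, the lysosome and phagocytosis median to 0.23 and the iron, lipid and antioxidant median to 0.26.

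Of 1280 list medians under an alternative, 868 lay between the medians of the single-gene interval bounds by the rule. That range has the width of a typical gene's interval and is not the counting error of a list median. Of 104 shares and share ratios 73 stayed within their interval by the rule, and of 3118 single-gene ratios 1888 did. With 40 to 85 members in 3 of the libraries, genes under about 50 CPM there rest on few UMIs, and their ratios have wide intervals.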

Other observations

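Of 15 tested S100, annexin and galectin genes 2 were called higher and 5 lower in young tumour against young sham, over the members without choroid plexus barcodes, with a median log2 ratio of −0.71. Over all 2964 genes tested there 9.24% were called higher and 7.69% lower. S100a4, a calcium-binding protein, was at 1170, 393, 1410 and 1613 CPM in the 4 libraries, in the order used above. Among suppressive and checkpoint genes 7 of 15 were called higher and 1 lower in the same comparison, with a median of 0.86. Arg1, the arginase of alternatively activated macrophages, was at 4.64 CPM (3 UMIs) in young sham and 69.8 CPM in young tumour, a ratio of 15.1 (5.09 to 73.5), and 54.5% of the UMIs of young tumour came from 5 members. In the C1q-high members of young mice 18 of 23 immediate early genes were called lower with a tumour and 0 higher, with a median of −1.73 against −0.11 over all genes tested. Of those 3195 genes 18.8% were called lower and 14.5% higher. Egr1 was at 971 CPM in the 13 such members of young sham and at 32.1 CPM in young tumour, and Jun at 1853 and 431 CPM. These members of young sham also held more oligodendrocyte, microglia and endothelial marker UMIs per total, as given above, and the part of this was not tested.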
